A study of Homo sapiens with 2 samples.

Results

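The genes described here encode core proteins of the spliceosome, the SR proteins that guide it, and LSM proteins, some of which act outside splicing. For short they are called splicing genes below. They were chosen by symbol as the protein-coding genes whose names begin with SNRP, SF3A, SF3B, PRPF or SRSF, or with LSM followed by a digit, which gave 59 of 19794 coding genes in GENCODE release 44 placed on hg19 (GRCh37). No measured value entered that rule, but it was set with earlier results of these data known. NRF-1 occupancy was profiled by ChIPmentation, a chromatin immunoprecipitation in which Tn5 transposase adds the sequencing adapters, in the human glioblastoma cell line U251. Cells carried either a control siRNA (siControl) or an siRNA against AATF (siAATF), a transcriptional cofactor studied here as a partner of NRF-1. The sample labels name U251 and the design text of the series names U138, another glioblastoma line, so the labels were followed. Each condition had 1 peak list, the labels call the experiment a duplicate without saying whether reads were pooled, and no input or IgG library was named. Differences between the lists therefore have no replicate check and no p-values are given.

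The spliceosome removes introns from pre-mRNA. Its small nuclear ribonucleoproteins (snRNPs) each hold a U-rich RNA inside a ring of Sm or LSM proteins, SF3A and SF3B place the U2 snRNP on the branch site, PRPF proteins drive the assembly and the catalytic steps, and SR proteins bind exons and choose splice sites. NRF-1 is a dimeric activator that recognises a CG-rich palindrome, the half-site GCGCA followed by its own reverse complement TGCGC, near the starts of housekeeping and mitochondrial genes.

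Sites of the NRF-1 core lay inside the strongest promoter peak of 18 of the splicing genes. Those behind the strongest of these peaks are shown first because the peak values below are read against them. Promoters reached 1 kb to each side of every coding transcript start, and a core was allowed up to 1 mismatch. Each line gives 30 bases of the gene strand with the core in capitals, and substitutions are numbered from 1 at the 5′ end of the core. Only LSM12 and LSM7 held an exact core. The LSM12 core lies in its intron at chr17:42143694-42143703 (minus strand) and the LSM7 core lies upstream of LSM7 at chr19:2328624-2328633 (minus strand), in an exon of the neighbouring gene SPPL2B. One base further from LSM7 sits another core, with the change G1A (chr19:2328635-2328644).
LSM12 exact core: ggcgcccgggGCGCATGCGCacggccctga
LSM7 exact core: cgcatgcgccGCGCATGCGCgtgggggagg
LSM7 core with G1A: accccgggccACGCATGCGCcgcgcatgcg

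Strong peaks with a 1-mismatch core are shown next (LSM1, also among the strongest, is not shown). That of SF3B1 is added for its high fold enrichment. That of SRSF7 is the weakest with a core when only the strongest peak of each gene is counted. PRPF39 had its core in its untranslated region (chr14:45553306-45553315, plus strand, G1A). PRPF40B had a pair of cores upstream of an alternative first exon, at chr12:49961647-49961656 inside an untranslated region of MCRS1 (C10T) and at chr12:49961692-49961701 (G1A), both read on the plus strand. The SRSF4 core lay in its intron at chr1:29507978-29507987 (minus strand, A5C). Upstream of SRSF2, in an untranslated region of MFSD11, were cores at chr17:74733554-74733563 (T6G) and chr17:74733984-74733993 (T6A), both given on the minus strand. SRSF1 had cores upstream at chr17:56084731-56084740 (A5G) and in its intron at chr17:56083968-56083977 (C8T), on the minus strand. Those of SF3A2 lay upstream, in an untranslated region of PLEKHJ1, at chr19:2236676-2236685 (T6C) and chr19:2236365-2236374 (A5C), on the plus strand. The SF3B1 core was upstream at chr2:198299818-198299827 (minus strand, T6C), and the SRSF7 core was in its untranslated region at chr2:38978550-38978559 (minus strand, G1A).
PRPF39: agggacactgACGCATGCGCatcgtgccct
PRPF40B distal: ccatgcctttGCGCATGCGTaacacttcga
PRPF40B proximal: ggtccggcccACGCATGCGCagcttttcgg
SRSF4: ggttcccactGCGCCTGCGCgggtgggggt
SRSF2 proximal: gccgggctgtGCGCAGGCGCttcgggtagg
SRSF2 distal: ggcctggcacGCGCAAGCGCtccgcgggga
SRSF1 upstream: gcgcgtgcgtGCGCGTGCGCtgaacgtagc
SRSF1 intronic: cacgttgggtGCGCATGTGCggggggtttg
SF3A2 proximal: agagcgttgtGCGCACGCGCagtttgcctt
SF3A2 distal: cagggctagtGCGCCTGCGCaccttgggcc
SF3B1: ctcccgtttgGCGCACGCGCagagtgcagc
SRSF7: caacgagatgACGCATGCGCaaagcgcagc

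Nearly every splicing gene had an NRF-1 promoter peak. In siControl 57 of 59 had one (96.6%, exact Clopper-Pearson 95% interval 88.3 to 99.6), beside 61.1% of all coding genes. In siAATF 56 of 59 had one (94.9%, 85.9 to 98.9), beside 60.7% of all coding genes. These intervals cover counting error only, and genes are not replicates of a condition. With peaks of −log10 q of at least 5 alone, where q is the false discovery rate of the peak caller, 50 genes (84.7%) kept a peak in siControl and 47 (79.7%) in siAATF, beside 51.5% of all coding genes in each list.

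The 56 genes with a peak in both lists had overlapping peaks in each case. A peak in siControl alone was found for 1 of 59 genes (1.69%), SF3B4, beside 1.62% of all coding genes. A peak in siAATF alone was found for 0 of 59 genes (0%, upper bound 6.06), beside 1.17% of all coding genes. Of the promoter peaks of the splicing genes, 51 of 57 spanned the canonical start in siControl and 49 of 56 in siAATF. The same share was not computed over all coding genes, and the peaks were taken near coding starts by rule. Median widths were 850 bp and 864 bp, close to the 856 bp and 870 bp of all coding genes with a promoter peak.

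The strength of these peaks spread over a wide range. Their −log10 q ran from 2.68 to 95.4 in siControl, with a median of 31.0 against 18.1 for all coding genes with a promoter peak. In siAATF it ran from 1.72 to 87.9, with a median of 32.03 against 17.6. The splicing genes thus held both very strong and barely called promoter peaks. Among the 1000 strongest peaks of the list by −log10 q were 8 of their 57 in siControl (14.0%, 6.26 to 25.8), beside 9.09% of all coding genes with a promoter peak, and 8 of 56 in siAATF (14.3%, 6.38 to 26.2), beside 9.23%, so the background lay inside both intervals. Because fold enrichment is relative to the background of each library, and −log10 q also depends on its depth, peaks of the 2 lists were compared by percentile rank within the list, where 0 marked the weakest peak and 100 the strongest. By fold enrichment the median rank was 71.7 (order-statistic 95% interval 59.2 to 76.8) in siControl, against 63.2 for all coding genes with a promoter peak. In siAATF it was 70.6 (61.4 to 77.3), against 64.4.

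**Figure D1:**
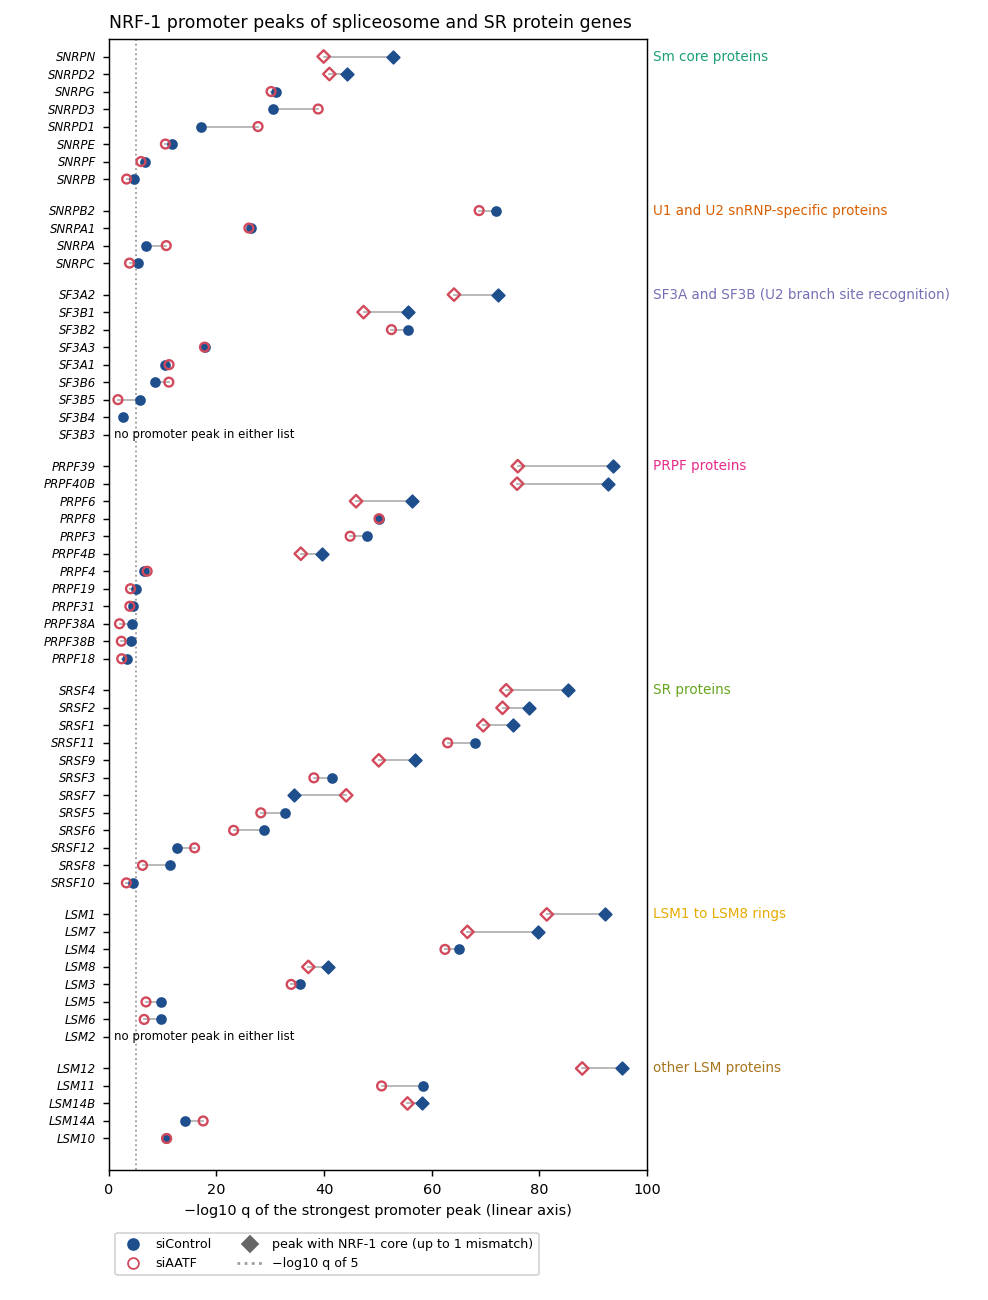
The −log10 q of the strongest promoter peak (horizontal axis, linear) of the splicing genes (rows, by role and then by strength, with 1 PRPF gene not drawn), with filled symbols for siControl, open symbols for siAATF and diamonds for peaks that held the NRF-1 core with up to 1 mismatch. All diamonds lie at 34.5 or above, LSM12 is the strongest at 95.4 in siControl, and SF3B3 and LSM2 have no peak.

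Among the Sm proteins, which form the ring around the U1, U2, U4 and U5 RNAs, 8 of 8 genes had a promoter peak in each list. The strongest was at SNRPN (chr15:25199747-25200595), whose product is the tissue-restricted SmN and whose first exon is shared with SNURF. It had a −log10 q of 52.9 in siControl and 39.9 in siAATF. Its fold enrichment was 5.62, a rank of 47.0, next to SNRPF with 5.71 and SNRPB with 5.21 at the lower end of the Sm genes. SNRPG, encoding the smallest Sm protein, had a lower −log10 q of 31.0 and a fold enrichment of 9.76, a rank of 96.8. The weakest was SNRPB, the gene of the ubiquitous paralogue SmB, with a −log10 q of 4.72 in siControl and 3.33 in siAATF. Between these lay SNRPD2 (44.3 and 41.0), SNRPD3 (30.5 and 38.9), SNRPD1 (17.2 and 27.7), SNRPE (11.7 and 10.5) and SNRPF (6.73 and 5.997). In −log10 q, which also depends on depth, SNRPD1 and SNRPD3 alone were higher in siAATF. By rank of fold enrichment SNRPG was higher in siAATF as well.

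The U1- and U2-specific proteins read the 5′ splice site and the branch site with their RNAs, and 4 of 4 genes had a peak in each list without a core in any. SNRPB2, whose product binds a stem-loop of U2 RNA, was by far the strongest, with a −log10 q of 72.0 in siControl and 68.8 in siAATF. SNRPA1, which encodes its partner on that stem-loop, had 26.4 and 26.04. The genes of the U1 snRNP were weaker, with 6.86 and 10.7 for SNRPA and 5.36 and 3.87 for SNRPC, whose product contacts the 5′ splice site duplex.

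SF3A and SF3B were the only role with more than 1 gene lacking a peak in a list. A promoter peak was found for 8 of 9 genes in siControl and for 7 of 9 in siAATF. SF3A2, a subunit of the SF3A trimer, was strongest with a −log10 q of 72.3 in siControl and 64.1 in siAATF. SF3B1, the large SF3B scaffold that clamps the branch site, had 55.6 and 47.3 and a fold enrichment of 9.99, a rank of 97.6 in siControl. SF3B2, its partner subunit, had 55.5 and 52.5. At a middle level were SF3A3 (17.9 and 17.8), SF3A1 (10.4 and 11.2) and SF3B6 (8.55 and 11.2).

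The remaining SF3B subunits were weak or without a peak. SF3B5, a small subunit, had a −log10 q of 5.90 in siControl and 1.72 in siAATF, the lowest siAATF value of all splicing genes. SF3B4, an RNA-binding subunit, had a peak of 261 bp in siControl with a fold enrichment of 4.10 and a −log10 q of 2.68, the lowest of the set, and none in siAATF, where the nearest peak lay 10.1 kb away near the start of SV2A. SF3B3 had no promoter peak in either list, and its nearest peaks lay 68.8 kb and 68.9 kb away near the start of FCSK. The SF3B3 promoter was low in CG, with 43% GC and 13 CpG in 300 bp against medians of 61.3% and 27 for the splicing genes, and no core with up to 1 mismatch was found within 1 kb of its start. The 300-bp window ran from 250 bp before to 50 bp after the canonical start.

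LSM2, the other gene without a peak, differed in that its promoter did hold the core. LSM2 belongs to both LSM rings, and its cores with the change A5C lay at chr6:31774811-31774820, −72.5 bp from the canonical start, and at chr6:31774641-31774650 in its untranslated region, on the minus strand.
LSM2 upstream: gctagggtccGCGCCTGCGCaatgggagcc
LSM2 untranslated region: gcttcccgctGCGCCTGCGCggtcccgcct

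The absence of a peak at LSM2 was shared by the genes around it. Of 93 coding genes with a canonical start within 1 Mb of that of LSM2, LSM2 included, 0 had a promoter peak in either list (exact upper bound 3.89%), a window chosen after the values were seen. Among the other 935 coding genes of chromosome 6, 60.4% had one in siControl and 60.2% in siAATF. The nearest peak to LSM2 lay 1603.56 kb away in siControl and 1603.41 kb away in siAATF, near the start of PHF1. The lists held 16 (siControl) and 18 (siAATF) peaks on the alternative haplotype contigs of chromosome 6, which were not assigned to genes, and their part in the missing LSM2 peak was not tested.

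All 13 PRPF genes had a peak in each list, with −log10 q from 3.36 to 93.6 in siControl and from 2.01 to 76.0 in siAATF. PRPF39, whose product is associated with the U1 snRNP, had a −log10 q of 93.6 in siControl and 76.0 in siAATF, and its fold enrichment of 10.9 was the highest of the set in siControl (rank 99.5). PRPF40B, a further U1-associated gene, had 92.8 and 75.9, at a start that its annotation shares with MCRS1 and not at its canonical start. Its canonical start, far downstream at chr12:50017344, had a separate peak without a core, with a −log10 q of 30.2 in siControl and 30.9 in siAATF.

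The other strong PRPF peaks were at genes of the tri-snRNP. PRPF6, which bridges U5 and U4/U6, had a −log10 q of 56.4 in siControl and 45.9 in siAATF. PRPF8, the scaffold of the catalytic centre, had 50.2 in each list, and PRPF3, a U4/U6 protein, had 48.1 and 44.8. PRPF4B, the kinase that phosphorylates splicing factors before activation, had 39.5 and 35.7. A further 6 genes stayed below 10 in both lists. They were PRPF4 (6.52 and 7.15) and PRPF31 (4.57 and 3.93) of the U4/U6 snRNP, the ubiquitin ligase PRPF19 (5.09 and 4.05), PRPF38A (4.25 and 2.01) and PRPF38B (4.21 and 2.35), which act around activation, and the second-step factor PRPF18 (3.36 and 2.42). Subunits of one particle therefore did not share one level, since PRPF3 exceeded PRPF4 and PRPF31 in both lists.

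The SR protein genes all had a peak in each list (12 of 12), and 11 of 12 reached a −log10 q of 5 in each. SRSF4 was highest with 85.2 in siControl and 73.8 in siAATF, followed by SRSF2 with 78.1 and 73.1 and by SRSF1, the founding SR protein, with 75.1 and 69.6. SRSF11 had 68.1 and 62.9 without a core, and SRSF9 had 56.8 and 50.2 with one. The middle of the family was formed by SRSF3 (41.5 and 38.1), SRSF7 (34.5 and 44.1), SRSF5 (32.8 and 28.2) and SRSF6 (28.8 and 23.2). Lowest were SRSF12 (12.6 and 16.0), SRSF8 (11.3 and 6.28) and SRSF10 (4.60 and 3.28), whose product acts as a repressor when dephosphorylated. In −log10 q, which also depends on depth, SRSF7, SRSF12 and no other SR gene had the larger value in siAATF. By rank of fold enrichment, 6 of 12 SR genes were higher in siAATF.

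The orders by −log10 q and by fold enrichment differed within this family, as a pair of its genes shows. The SRSF1 peak was 1585 bp wide in siControl, the widest of the set, and combined a −log10 q rank of 94.8 with a fold enrichment of 5.80, a rank of 49.8. The SRSF3 peak was 733 bp wide and combined a −log10 q rank of 81.9 with a fold enrichment of 10.2, a rank of 98.3.

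LSM1 to LSM8 encode the hetero-heptameric rings that bind U6 RNA in the nucleus and aid decapping of mRNA in the cytoplasm, and 7 of 8 had a peak in each list. LSM1, the subunit particular to the cytoplasmic ring, had a −log10 q of 92.1 in siControl and 81.4 in siAATF, and LSM8, its nuclear counterpart, had 40.7 and 37.1. Of the subunits common to both rings, LSM7 had 79.7 and 66.6, LSM4 had 65.1 and 62.5, and LSM3 had 35.6 and 33.9. LSM5 (9.69 and 6.93) and LSM6 (9.64 and 6.59) were low, so the called peaks of a single ring ranged from these to the strongest percentiles at LSM1. The missing LSM2 peak is set apart, since no coding gene around it had one in either list.

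The other LSM genes do not belong to the U6 ring, and 5 of 5 had a peak in each list. LSM12, an RNA-binding protein that interacts with ataxin-2, had the strongest peak of all splicing genes by −log10 q, with 95.4 in siControl and 87.9 in siAATF, at chr17:42143203-42144205 in siControl. LSM14B had 58.2 and 55.5, and its paralogue LSM14A, a component of P-bodies, had 14.2 and 17.5. LSM11 and LSM10, which replace a pair of Sm proteins in the U7 snRNP of histone mRNA processing, differed strongly, with 58.3 and 50.7 for LSM11 and 10.7 and 10.8 for LSM10.

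The NRF-1 core was then compared across these peaks. With up to 1 mismatch it was present in 18 of 57 peaks in siControl (31.6%, 19.9 to 45.2), beside 24.2% of all coding genes with a promoter peak. In siAATF it was in 18 of 56 peaks (32.1%), beside 24.4%, and these were the same 18 genes. The exact core was in 2 of 57 peaks in siControl (3.51%), beside 3.95% of all coding genes with a promoter peak. The shares of the splicing genes were thus near the background for the exact core, and for up to 1 mismatch the background lay inside the interval.

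Peaks with the core were the more significant ones. Only the strongest promoter peak of each gene was compared, which leaves out a weaker SRSF5 peak with a core (−log10 q 24.2 in siControl). In siControl the 18 peaks with a core had a median −log10 q of 65.2, from 34.5 at SRSF7 to 95.4 at LSM12, and the 39 without had a median of 11.7, from 2.68 to 72.0. The same medians over all coding genes were 66.4 and 12.3. In fold enrichment the classes lay closer together, with medians of 7.75 (5.51 to 10.9) with a core and 6.94 (4.04 to 10.2) without. Of the 18 core holders, 18 had a −log10 q of 30 or more, beside 89.3% of all coding genes with a core, and so did 12 of the 39 genes without a core (30.8%, 17.0 to 47.6), beside 19.1%.

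**Figure D2:**
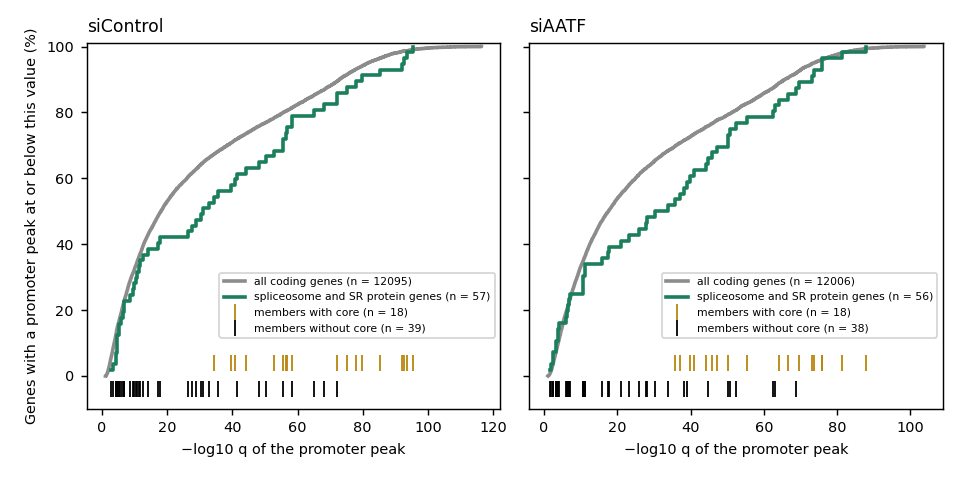
Cumulative share of genes with a promoter peak (vertical axis, percent) at or below each −log10 q (horizontal axis), for siControl (left) and siAATF (right), with the splicing genes in green, all coding genes in grey, and ticks for splicing genes with and without the core. The green curve lies below the grey one over most of the range, since the median was 31.0 against 18.1 in siControl, and no tick with a core lies below 34.5 in siControl.

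The strongest peaks without a core were examined for their closest words. SNRPB2 (−log10 q 72.0 in siControl) had its closest word at chr20:16710535-16710544 on the plus strand, upstream of the gene and 5.5 bp from the peak midpoint, with the changes G1A and T6C. SRSF11 (68.1) had its closest word at chr1:70686992-70687001 on the plus strand, outside annotated exons, with C2G and A5C, 99.5 bp from the midpoint. LSM4 (65.1) had A5C and T6G in a word at chr19:18434107-18434116 on the minus strand, 33.5 bp from the midpoint. In all, 20 of the 57 peaks had 2 mismatches in their closest word (35.1%, beside 43.4% of all coding genes with a promoter peak). SNRPB2 combines, in a single word, changes that PRPF39 and SF3B1 each carry alone.
SNRPB2 closest word: cgcagggcagACGCACGCGCagagagattg
SRSF11 closest word: gacggctgctGGGCCTGCGCggggtggagc
LSM4 closest word: aatgcaccccGCGCCGGCGCgcgttgctcc

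The 1-mismatch cores did not use all substitutions. Read without regard to strand, since the core is a palindrome, 7 of the 21 sites in siControl peaks carried A5G or T6C (33.3%, beside 22.1% of 2862 sites in the promoter peaks of all coding genes). A further 5 sites carried G1A or C10T (23.8% beside 6.71%), at PRPF39, PRPF40B (both of its sites), LSM7 and SRSF7. Another 5 carried A5C or T6G (23.8% beside 41.2%), the commonest form over all coding genes. Changes of the central bases thus made up most of the sites, with the edge change G1A or C10T second.

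The cores lay close to the gene starts. In the 18 peaks, the core nearest the canonical start was a median of 134 bp from it, against 123.5 bp for all coding genes with a core in the peak, and it lay upstream in 15 of 18 (83.3%, beside 76.8%). It was within 250 bp of the start in 13 of 18 (72.2%, beside 67.9%). Toward the middle of the peak the picture was less tight, with 10 of 18 peaks holding a core within 100 bp of the midpoint (55.6%, beside 70.2%). SRSF1, LSM14B and SRSF7 were the clearest cases away from it, with their nearest cores 338.5, 322 and 257 bp from the midpoint.

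**Figure D3:**
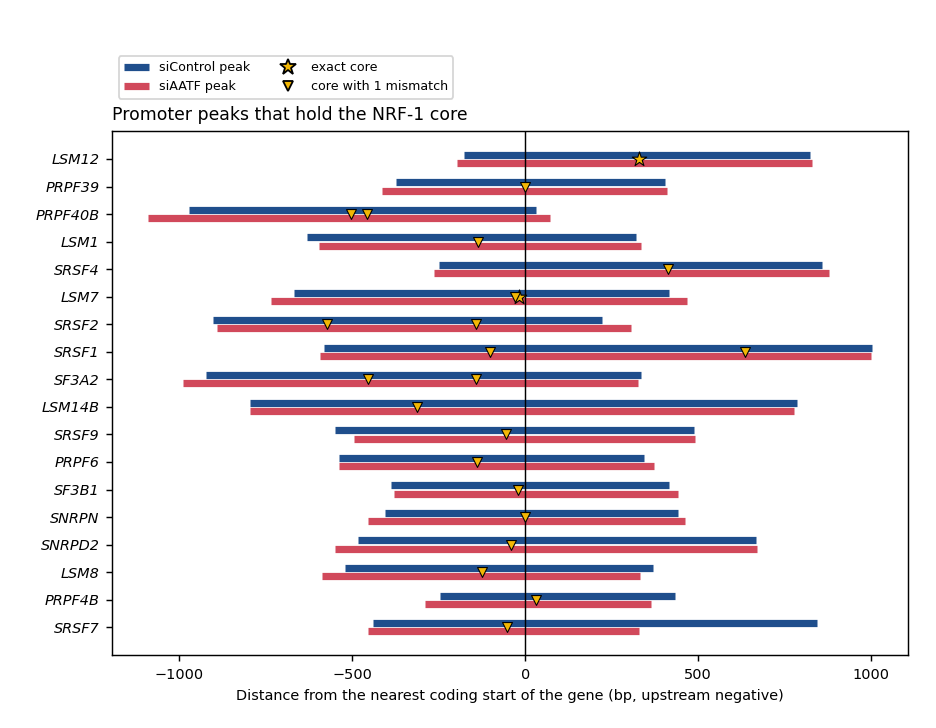
Promoter peaks that held the core, drawn by distance from the nearest coding start of the gene (horizontal axis, bp, upstream negative), with siControl in blue, siAATF in red, triangles for 1-mismatch cores and stars for exact cores. Rows follow siControl −log10 q from LSM12 (95.4) to SRSF7 (34.5), and the core is inside the peak of both lists in all 18 rows.

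Cores were also found in member promoters outside the strongest peak. SRSF5 had its strongest peak at an alternative start, with its midpoint at −40309.5 bp from the canonical start, a −log10 q of 32.8 in siControl and no core, and the peak at its canonical start (24.2 in siControl, 21.6 in siAATF) held a core with T6G at chr14:70234432-70234441. SRSF10 had cores with G1C and A5G at −145.5 bp and −162.5 bp from its canonical start, and its weak peak at chr1:24306295-24306603 did not reach them. The core was thus present at SRSF10 without being covered by a peak. It was also uncovered at LSM2, where no coding gene within 1 Mb had a promoter peak in either list.

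Many of these promoters are shared with a neighbour, so their peaks cannot be assigned to a single gene. In siControl 20 of 57 peaks covered a coding start of another gene (35.1%, 22.9 to 48.9), beside 22% of all coding genes with a promoter peak. Such pairs included SRSF7 with GEMIN6, itself a gene of snRNP assembly, SRSF2 with MFSD11, LSM7 with SPPL2B, SF3A2 with PLEKHJ1, LSM1 with BAG4, LSM3 with the DNA repair gene XPC and PRPF38A with the replication gene ORC1. At SNRPD3 the peak spanned a start of GUCD1 and ended short of the canonical start of SNRPD3, with its midpoint at −614 bp from it.

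Sequence words of other factors were counted in the 300-bp promoter windows of all 59 genes, on both strands and without regard to overlap, and a match describes letters only. The NRF-1 core with up to 1 mismatch was in 15 windows (25.4%, beside 10.6% of all coding genes). CCGGAAG, a word of the ETS family, was in 21 (35.6% beside 13.97%), and CCAATC, the NFY word, was in 17 (28.8% beside 18.2%). AAGATGGC, the YY1 word, was in 5 (8.47% beside 4.04%), and TCTCGCGA, the CGCG element, was in 3 (5.08% beside 1.73%), at SRSF10, LSM3 and LSM14A. Of the 39 genes with a peak and no core in it, 28 had at least 1 of these 4 other words (71.8%, beside 41.1% of all coding genes with such a peak). The ETS word was the commonest with 15 genes (38.5% beside 19.4%), among them SNRPB2, SNRPG, SF3B2 and SNRPA1. These words were sought at the canonical start, which the strongest peak need not cover. SRSF5 and LSM5, also among the ETS genes, had their strongest peak at another start. The SRSF5 peak at its canonical start did hold a core. GC content was not higher than elsewhere, with a median of 61.3% against 63.7%, and CpG was somewhat denser, with 27 against 23 in the window.

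The comparison of siControl with siAATF asked whether NRF-1 peaks at these genes changed their standing when AATF was depleted. For the 56 genes with a peak in both lists, the median change in rank by fold enrichment, siAATF minus siControl, was −0.850 points (order-statistic 95% interval −2.98 to 0.359), against 0.185 for all coding genes. The rank was lower in siAATF for 34 of 56 genes (60.7%, 46.8 to 73.5), beside 48.8% of all coding genes. With ranks taken from −log10 q instead, 29 of 56 were lower (51.8%, beside 44.4% of all coding genes) and the median was −0.166 points, against 0.464. The intervals of the members' median included 0 under both rankings, and 27 of 56 genes moved by at most 5 points by fold enrichment, beside 49.3% of all coding genes.

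Few genes moved far. The rank was lower in siAATF by over 20 points for 2 of 56 genes (3.57%), beside 2.93% of all coding genes, and higher by over 20 points for 1 of 56 (1.79%), beside 3.7%. These shares were near the background. The genes past 20 points depended on the setting. Once peaks with a −log10 q below 5 were dropped from the lists, 6 of 47 passed, SNRPD1 among them, beside 11.02% of all coding genes. SF3B5 and PRPF38A had no siAATF peak left in that setting, so no change was computed for them. SNRPD1 did not pass when ranked by −log10 q. SF3B5 went from a fold enrichment of 5.67 (rank 47.9) in siControl to 3.59 (rank 9.41) in siAATF, a change of −38.5 points, and its siAATF peak no longer reached the canonical start. PRPF38A went from 4.88 (rank 35.2) to 3.75 (rank 13.2), a change of −21.96 points, at a start it shares with ORC1. SNRPD1 went from 7.93 (rank 79.2) to 10.1 (rank 99.4), a change of 20.2 points, with a peak that narrowed from 703 to 545 bp. SRSF7 came next among the higher ones, with a change of 19.6 points from a fold enrichment of 7.86 to 9.48. Its peak narrowed from 1284 to 783 bp. Narrowing was not particular to genes higher in siAATF, since the PRPF38A peak, lower in rank, narrowed as well, from 594 to 372 bp. The PRPF38B peak, also lower in rank, widened from 782 to 1023 bp. The relation of width to rank change was not tested.

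**Figure D4:**
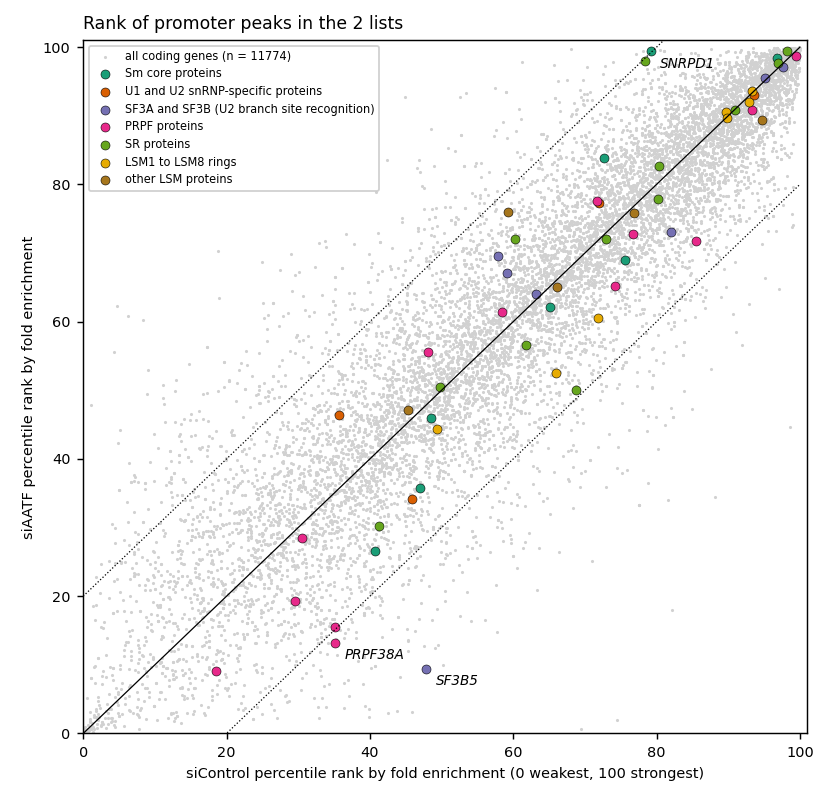
Percentile rank by fold enrichment of the strongest promoter peak in siControl (horizontal axis) and siAATF (vertical axis) (0 weakest and 100 strongest of the list), with grey dots for all coding genes with a peak in both lists and coloured dots for splicing genes by role. The solid line marks equal ranks and the dotted lines a change of 20 points, which SNRPD1 passes upward and SF3B5 and PRPF38A pass downward.

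The weakest peaks moved in a single direction. Of the 7 splicing genes with a siControl −log10 q below 5, SF3B4 had no siAATF peak, and the other 6 (SNRPB, PRPF18, PRPF31, PRPF38A, PRPF38B and SRSF10) were all lower in rank in siAATF, 6 of 6 (100%, 54.1 to 100), beside 37.7% of all coding genes in that class. Their changes ran from −21.96 to −9.39 points, with a median of −12.6 against 4.13 for all coding genes in that class. The changes were of both signs in the other classes. They ran from −38.5 to 11.7 for a −log10 q of 5 to 10, from −18.6 to 20.2 for 10 to 30 and from −11.2 to 19.6 for 30 to 60. Of the 12 genes with a −log10 q of at least 60, the changes ran from −13.8 at PRPF40B to 0.839 at SF3A2. These classes were set after the values had been seen, and without replicates the spread of such changes was not measured. Of the 18 core holders 0 moved by over 20 points (−13.8 to 19.6), beside 1.3% of all coding genes with a core, and 3 of the 38 without a core did (7.89%), beside 8.39%. Both counts were near the background.

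Changes by role followed no common direction. Over all coding genes with a peak in both lists, the rank was lower in siAATF for 48.8%. By role it was lower for 10 of 13 PRPF genes (median change −3.96 points), 5 of 8 Sm genes (−2.72) and 5 of 7 LSM ring genes (−0.893). It was lower for 6 of 12 SR genes (median 0.293), 3 of 7 SF3A and SF3B genes (0.359), 2 of 4 U1 and U2 genes (2.37) and 3 of 5 other LSM genes (−0.974). The 10 PRPF genes included PRPF18, PRPF31, PRPF38A and PRPF38B, named above among the weakest peaks. For PRPF40B, whose best peak changed by −13.8 points at the MCRS1 start, the peak at the canonical start was at rank 93.0 in siControl and 97.5 in siAATF, so its starts differed in direction.

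Other genes of splicing showed a like occupancy. Of 74 further splicing genes, 69 had a promoter peak in siControl (93.2%, 84.9 to 97.8) and 71 in siAATF (95.9%, 88.6 to 99.2), with median −log10 q of 33.7 and 31.5. Cytosolic ribosomal protein genes had one in 69 of 79 cases in each list (87.3%, 78.0 to 93.8), with lower medians of 11.6 and 10.8, and HNRNP genes in 20 of 24 (83.3%, 62.6 to 95.3), with 26.3 and 23.8. The intervals overlapped that of the 59 genes described here. Within the 74, a peak was found in siControl for 16 of 18 other snRNP proteins, 25 of 27 other splicing factors and helicases, 12 of 12 SR-related proteins and SR kinases, 6 of 6 minor spliceosome proteins and 10 of 11 genes of the SMN complex and snRNP assembly. SNRNP27, DHX16 and GEMIN5 lacked one in both lists, and DDX23 and CWC15 lacked one in siControl alone. The core with up to 1 mismatch was in 42.0% of the siControl peaks of the further splicing genes (30.2 to 54.5), in 24.6% of those of the ribosomal protein genes (15.1 to 36.5) and in 45% of those of the HNRNP genes (23.1 to 68.5), all of which overlapped the interval of the 31.6% given above.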

How the data were processed

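NRF-1 ChIPmentation peaks from U251 cells treated with siControl or siAATF were analysed, 1 list per condition. Per the study's methods, the authors aligned reads to hg19 with Bowtie2 and called peaks with MACS2 in the nf-core ATAC-seq pipeline with default parameters, whose read shifting could move peak edges slightly. Start and end positions were deposited by the authors in bp. The fold enrichment over local background, a ratio, was deposited by the authors and used within its own list. The −log10 q was deposited by the authors as MACS2 wrote it. The deposited −log10 p and display score were not used further. Read numbers were not part of the lists, so depth is unknown.

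The values of 1 PRPF gene are counted but not reported here. Genes, roles and comparison lists were chosen with earlier results of these data known. The peak with the highest −log10 q within 1 kb of any protein-coding start (GENCODE release 44, GRCh37) was taken per gene, with 1-based positions. Genes named were those without a peak, the strongest and weakest overall and by role, those moving over 20 rank points and those with shown sequence. The canonical start is the Ensembl canonical transcript's. Python 3.11.15, numpy 2.4.6, pandas 2.3.3, scipy 1.17.1 and pysam 0.24.0 were used. Peak assignment, ranks and core search were tested on simulated data. Alternatives were a −log10 q of at least 5, the 10000 strongest peaks, windows of 500 bp and 2 kb, the canonical start alone, 50% of the peak in the window, ranking by −log10 q, the peak nearest the canonical start, an exact core, and a core at most 100 bp from the midpoint.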

Additional observations from a re-analysis of the deposited data

How the results depend on the processing

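No paired analysis was possible because siControl and siAATF each had a single list. Of 34 values recomputed over 8 results, 23 stayed within counting error (within 1.5 times for the number of genes moving over 20 points) and 11 moved. Restricting the lists removes weak peaks by construction, and the share of splicing genes with a promoter peak became 84.7% (siControl) and 79.7% (siAATF) with a −log10 q of at least 5, and 81.4% and 76.3% among the 10000 strongest peaks. The core share became 3.51% and 3.57% for the exact core and 17.5% and 19.6% within 100 bp of the midpoint, both narrower by construction. The median siAATF rank became 78.9 by −log10 q, where the cause was not tested, and 59.8 among peaks with a −log10 q of at least 5, which are ranked without the weakest. In that last setting 6 genes moved over 20 points, SNRPD1, PRPF40B, SRSF7, SRSF8, LSM6 and LSM14A. The siAATF peaks of SF3B5 and PRPF38A were removed by the −log10 q cut, so no change was computed for these genes. Ranked by −log10 q, SF3B5 and PRPF38A moved over 20 points and SNRPD1 did not. Windows of 500 bp and 2 kb, the canonical start alone and the requirement of 50% of the peak in the window left the shares of genes with a peak at 96.6% and 94.9%. Depth was unknown, and 1 list per condition leaves the spread of each change unmeasured.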

Other observations

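Peaks inside gene bodies, more than 1 kb from any coding start, were not counted over all coding genes. The splicing genes had 2 in each list. SNRPN had one at chr15:25201244-25202006 in siControl, just downstream of its promoter peak, with a fold enrichment of 4.78 and a −log10 q of 35.7, and its siAATF counterpart had 4.62 and 34.5. Both held a core with up to 1 mismatch, and their −log10 q exceeded that of the promoter peaks of SNRPB, SNRPE and SNRPF in both lists. PRPF6 had a weak one at chr20:62661088-62661287, with a −log10 q of 1.80 in siControl and 3.25 in siAATF.

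Several splicing genes had a further promoter peak beside the strongest one, 5 genes in siControl and 4 in siAATF. The same count was not made over all coding genes. At SRSF11 the weaker peak at a start shared with LRRC40 had a −log10 q of 11.5 in each list. At LSM5 the peak at the canonical start was the weaker, with 4.94 and 4.82, and the stronger lay at a start shared with AVL9. At SF3B5 a further weak peak with a −log10 q of 1.16 was present in siControl alone.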
